A study of Mus musculus with 15 samples.

Results

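The genes described here are transcripts that mark the pancreas: 38 of its exocrine cells, which make digestive enzymes, and 4 of its islets, which make hormones. They were measured in colon. The 42 genes were chosen because their levels differed between the groups of this study, so their differences between groups are given as a description, with no p-value for any of them. Of the 42 symbols, 40 had a row among the 22063 genes of the table, and Ctrc and Amy2b had none. Of these 40, 37 passed a filter of at least 1 FPKM (fragment counts scaled to transcript length and sequencing depth) in at least 5 libraries. Prss1, Rbpjl and Ptf1a did not pass it and are given by their values.

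RNA was sequenced from colon of wild-type C57BL/6 mice in 15 libraries, 5 per group. The control group was a blank control. The model group had received AOM/DSS, the carcinogen azoxymethane together with dextran sulfate sodium, an agent that damages colon epithelium, a common way to induce colitis-associated colorectal tumours. The third was the treatment group, labelled WMW-H, in a series on the herbal formula Wumei Wan in this model. Its samples' labels name WMW-H alone and do not repeat AOM and DSS. The sources used here give no age, sex, dose, times or way of dissecting the colon. The cell type on the labels is colon epithelial cells. Whether the 5 libraries of a group are from separate animals is not said, so p-values measure only the spread between these libraries, which may be technical.

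Acinar cells make up most of the pancreas and synthesise, in very large amounts, zymogens (inactive enzyme precursors), amylase and lipases, which they store in granules and release into the duodenum. The genes for these products are kept active together by PTF1, a complex of the bHLH factor PTF1A, an E protein and RBPJL, the acinar form of RBPJ. PTF1 reads a paired site made of an E-box and a RBPJ-type box. Islets lie among the acini and contain beta cells, which make insulin and islet amyloid polypeptide, alpha and delta cells, which make glucagon and somatostatin, and PP cells, which make pancreatic polypeptide.

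The promoter windows of 4 of the enzyme genes are shown as examples of the letters searched for, chosen with their values known. Cela2a lay close to the ratio of the core acinar index defined below. Ctrl lay close to that ratio in model and was the lowest of the core genes in WMW-H. Cpb1 and the amylase Amy2a5 were far above it in WMW-H. The windows come from RefSeq on GRCm38.p6, run from 250 bases before to 50 bases after the annotated start, and all lie on the minus strand. They are Ctrl at chr8:105933813-105934112, Cela2a at chr4:141825956-141826255, Cpb1 at chr3:20275684-20275983 and Amy2a5 at chr3:113258650-113258949. Capitals mark the E-box CACCTG and the RBPJ-type box TTCCCA, on either strand.
Ctrl: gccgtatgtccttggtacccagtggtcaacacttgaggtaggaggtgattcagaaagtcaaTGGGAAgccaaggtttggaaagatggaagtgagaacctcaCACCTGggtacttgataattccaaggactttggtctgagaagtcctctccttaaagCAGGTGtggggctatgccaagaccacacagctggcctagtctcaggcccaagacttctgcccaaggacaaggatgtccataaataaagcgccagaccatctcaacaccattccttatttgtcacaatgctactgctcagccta
Cela2a: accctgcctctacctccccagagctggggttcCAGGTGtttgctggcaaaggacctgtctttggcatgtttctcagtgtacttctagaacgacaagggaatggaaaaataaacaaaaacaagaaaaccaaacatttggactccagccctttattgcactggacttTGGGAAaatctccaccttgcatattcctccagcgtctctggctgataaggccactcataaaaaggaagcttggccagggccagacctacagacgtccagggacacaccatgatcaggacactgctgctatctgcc
Cpb1: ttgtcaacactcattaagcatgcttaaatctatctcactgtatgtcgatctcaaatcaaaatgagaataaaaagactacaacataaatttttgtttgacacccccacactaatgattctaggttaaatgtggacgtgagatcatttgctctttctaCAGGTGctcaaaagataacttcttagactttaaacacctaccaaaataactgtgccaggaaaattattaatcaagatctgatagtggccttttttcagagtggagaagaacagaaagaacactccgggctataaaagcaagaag
Amy2a5: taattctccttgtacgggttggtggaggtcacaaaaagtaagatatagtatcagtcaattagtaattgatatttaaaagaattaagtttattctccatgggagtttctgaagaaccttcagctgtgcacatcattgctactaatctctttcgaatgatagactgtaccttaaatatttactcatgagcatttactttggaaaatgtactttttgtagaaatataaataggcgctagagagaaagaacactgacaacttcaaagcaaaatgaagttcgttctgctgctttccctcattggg

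The Ctrl window held CACCTG at 2 places and TTCCCA at 1, and the Cela2a window held 1 of each. The Cpb1 window held 1 CACCTG and no TTCCCA, and the Amy2a5 window held neither. Whether the matches go with how the genes moved was not tested. Klk1 and Prss2, which held both boxes, departed from the core genes in WMW-H against control, by the rule given with the index. Cel, Cela2a, Ctrl and Pdia2, which also held both, departed in no comparison. Prss1 and Rbpjl held both as well but did not pass the filter. Cela3b, Cpa1, Pnlip, Rnase1 and Cela1, which departed in no comparison either, held only 1 kind. Windows were used for 34 of the genes, 31 of them exocrine. For these genes, windows on a chromosome that had been set aside were not used. Of those 31 windows, 16 held CACCTG (51.6%, against 20.2% of all 32851 windows), 16 held TTCCCA (51.6% against 25.6%) and 8 held both (25.8% against 5.3%). The TATA-type box TATAAA, searched the same way, was in 10 (32.3% against 13.6%). None of the 5 amylase windows held CACCTG or TTCCCA. The windows of Amy2a2, Amy2a3 and Amy2a4 were identical and 97.0% identical to that of Amy2a1, whereas that of Amy2a5 was 54.0% identical to them. These matches are descriptions of the letters in a short window, not sites shown to be bound.

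The libraries held 16400000 to 21100000 fragments as recovered from the steps between low values, with 16377 to 16692 genes above 0. Replicates were close but not copies: over 30 pairs within groups, the mean chi-square per degree of freedom was 2.14 to 5.09, where 1 is counting noise. All 12 colon epithelium markers were expressed, with a sum of 12146 to 12370 FPKM in control, 10498 to 10601 in model and 10649 to 11006 in WMW-H. The pancreatic transcripts together made 7.22% ± 0.038 (SD, n = 5) of the FPKM total in control, against 1.77% ± 0.013 in model and 3.30% ± 0.042 in WMW-H. These shares include each of the amylase rows with identical values, Amy2a2, Amy2a3 and Amy2a4. In bulk RNA, fewer cells of a type and less RNA per cell cannot be told apart. Some libraries often held the highest or lowest value of their group, WMW-H replicate 3 among them. Of 31 tested exocrine genes, with the identical amylase rows counted once, 11 were highest and 14 lowest of the 5 WMW-H libraries there (among all tested genes, 21.4% were highest and 34.1% lowest there). Within the model group, 12 of the 31 were highest in replicate 2 (19.0% of all tested genes) and 13 were lowest in replicate 5 (20.9%).

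In the model, the 40 pancreatic transcripts lay between 0% (Ins1 and Ins2) and 73.8% (Pnliprp2) of control, apart from Spink1 at 223% and Ppy at 222%. In WMW-H most lay between the model and control. A limma fit across all genes (Benjamini-Hochberg adjusted p under 0.05) called 35 of the 37 lower and 2 higher, Spink1 and Ppy. Their median log2 change was -2.07, beside 0.12 over all 12917 genes tested, of which 20.6% were called lower and 45.5% higher. In WMW-H against model, 31 were called higher (25.9% of all genes) and 3 lower (40.9%), namely Spink1, Pnliprp2 and Bhlha15, while Ppy, Ins1 and Iapp were not called. The median was 0.78 beside -0.07. In WMW-H against control, 33 were called lower (24.1%) and 2 higher (35.4%), again Spink1 and Ppy, and Amy2a1 and Amy2a5 were not called. The median was -1.16 beside 0.05. The call of Amy2a1 depended on the scaling, as given with the amylases. The identical rows Amy2a2, Amy2a3 and Amy2a4 count as 3 genes here. With them counted once, 33 genes were called lower in model against control. Nothing is read from these counts, because the genes were picked on these contrasts. Values of the 2 groups did not overlap for 39 of 40 genes in model against control (16% of all genes were lower and 36.9% higher without overlap), for 33 in WMW-H against model (18.8% higher, 32.3% lower) and for 34 in WMW-H against control (17% lower, 25.3% higher).

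**Figure D1:**
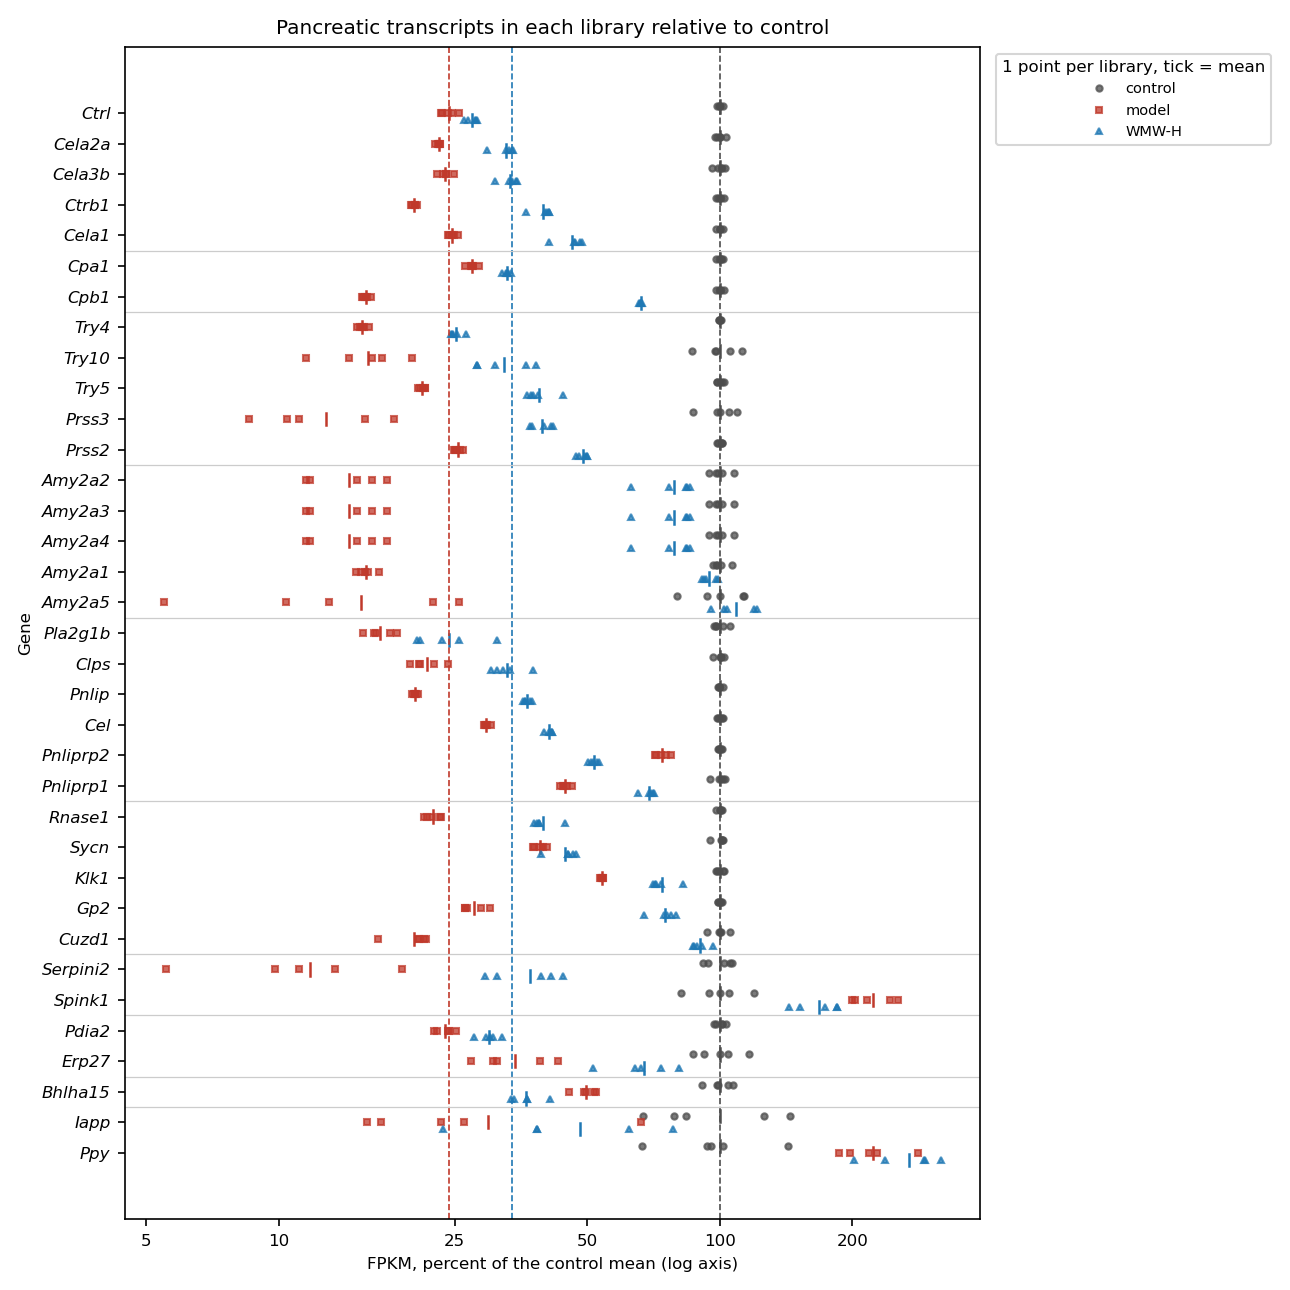
FPKM of 35 pancreatic genes in each of the 15 libraries, as percent of the gene's control mean on a log axis, with short vertical ticks for group means and genes ordered within their roles by the WMW-H mean. The dashed lines stand at 100%, at 24.3% (model) and at 33.7% (WMW-H), the ratios of the core acinar index. For most genes the model points lie to the left of the WMW-H points, the amylases of WMW-H lie near 100%, and Spink1 and Ppy lie above 100% in both groups.

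Elastases and chymotrypsins, serine proteases that are activated in the gut, were among the most abundant of these transcripts and moved within a narrow band. Cela2a (ENSMUSG00000058579), a pancreatic elastase, was at 4009, 4056, 4256, 4118 and 4117 FPKM in control. It was at 948, 955, 951, 945 and 928 FPKM in model, and at 1393, 1388, 1220.3, 1345 and 1369.7 FPKM in WMW-H. The 3 groups did not overlap, and WMW-H replicate 3 was the lowest of its group. Cela2a was thus at 23.0% ± 0.26 of the control level in model and 32.7% ± 1.73 in WMW-H. Ctrl, a chymotrypsin-like protease, was at 24.2% ± 0.94 and 27.4% ± 0.80, the smallest step between the 2 groups in this class. Cela3b was at 23.8% and 33.4%. Ctrb1, chymotrypsinogen B, was the most abundant of all, at 6460 ± 103 FPKM in control, and stood at 20.2% in model and 39.8% in WMW-H. Cela1 stood at 24.7% and 46.3%. In model these 5 genes were within 20.2% to 24.7% of control, whereas in WMW-H they spread from 27.4% to 46.3%.

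The 2 carboxypeptidases, which trim amino acids from the C-terminal end of peptides, parted in WMW-H. Cpa1, which removes hydrophobic residues, was at 1594 ± 21.7 FPKM in control, against 437 ± 11.0 in model and 523 ± 9.31 in WMW-H. Cpb1 (ENSMUSG00000011463), which removes basic residues, was at 565, 556, 541, 552 and 549 FPKM in control. It was at 86.7, 85.7, 87.4, 84.98 and 89.2 FPKM in model, and at 363, 368, 366, 363 and 367 FPKM in WMW-H. The spread within each group was a few percent and the groups were far apart. Cpb1 was at 15.7% of the control level in model and 66.1% in WMW-H, a ratio of 4.21 between these 2 groups. For Cpa1 the figures were 27.4%, 32.9% and 1.199.

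Trypsinogens, which once activated switch on the other zymogens, differed among themselves. Their longest transcripts are 82.2% to 97.1% identical, with Try4 and Try5 at the upper end, so reads may have been shared between them and the split among them is uncertain. The abundant Prss2 was at 2437 ± 26.2 FPKM in control, against 619 ± 12.2 in model and 1192 ± 30.9 in WMW-H. Try4 was at 2924 ± 11.5, 451 ± 10.2 and 737 ± 24.1 FPKM. Try5 was at 2104 ± 33.2, 444 ± 7.83 and 817 ± 64.5 FPKM. Against control, Prss2 was at 25.4% in model and 48.9% in WMW-H, Try5 at 21.1% and 38.8%, and Try4 at 15.4% and 25.2%. In WMW-H replicate 3, Try4 and Try5 were the highest of their group. Of the less abundant forms, Prss3 (ENSMUSG00000071519) was at 31.8, 32.4, 33.9, 28.0 and 35.4 FPKM in control and at 2.75, 3.36, 5.06, 3.58 and 5.89 FPKM in model. In WMW-H it was at 11.97, 12.9, 13.4, 12.1 and 13.5 FPKM. Prss3 was thus at 12.8% of the control level in model and 39.5% in WMW-H, and Try10 was at 15.9% and 32.4%. Prss1 was close to 0, with 24 fragments summed over the control libraries, 6 over model and 13 over WMW-H, and 12 of the 24 were in control replicate 5.

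Amylase, the enzyme that splits starch, was low in model and near the control level in WMW-H. Amy2a1 (ENSMUSG00000070360) was at 2228, 2365, 2166, 2136 and 2179 FPKM in control. It was at 330.4, 346, 339, 352 and 373 FPKM in model, and at 2040.3, 2167, 2189, 2055 and 2021 FPKM in WMW-H. The model libraries were all far below both other groups, and WMW-H overlapped with control. Amy2a5 (ENSMUSG00000074268) was at 502, 568, 468, 402 and 567 FPKM in control, at 112, 65.1, 27.5, 51.8 and 128 FPKM in model, and at 478, 520.0, 601, 609 and 513 FPKM in WMW-H. Amy2a2, Amy2a3 and Amy2a4 carried identical values in all 15 libraries, with a mean of 528 ± 25.7 FPKM in control, against 76.1 ± 14.3 in model and 416 ± 49.9 in WMW-H. Their longest transcripts are identical over 3717 bases and 98.5% identical to that of Amy2a5, so the 3 rows are 1 measurement. The longest coding transcript of Amy2a1 is, over its 890 bases, 99.9% identical to those of the other rows. The split among Amy2a1, Amy2a5 and the 3 identical rows is thus uncertain. Amylase was therefore also summed. The 5 rows together made 4301 ± 125 FPKM in control, against 654 ± 20.7 in model and 3886 ± 94.6 in WMW-H. The 3 identical rows are each in this sum. Whether reads were divided among them or counted in each is not known, so the sum may count them more than once.

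Against control, the amylase rows were at 14.4% to 15.7% in model and at 78.7% to 108.6% in WMW-H. From model to WMW-H they were 5.46 to 7.07 times as high, against 1.39 for the core acinar index defined below. In WMW-H against control, Amy2a1 was not called as deposited, but its call changed under each of the 4 other scalings. It was called lower with size factors, TPM and the total outside the pancreatic genes. Under quantile normalization its direction turned and it was called higher, and Klk1 was no longer called. In WMW-H against model, the call of Ppy changed under quantile normalization. No other pancreatic gene tested changed direction in any of the 3 comparisons under the 4 other scalings of the libraries.

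Genes for fat digestion fell into those that followed the proteases and a pair that did not. Pnlip, the main pancreatic triglyceride lipase, was at 2399 ± 26.4 FPKM in control, against 488 ± 6.08 in model and 876 ± 17.4 in WMW-H. Its cofactor Clps, colipase, was at 21.6% of the control level in model and 33.0% in WMW-H. Cel, the bile salt-activated lipase, was at 29.5% and 41.1%, and the phospholipase Pla2g1b was at 16.96% and 24.3%. Pnliprp1, a lipase relative with little known activity on triglycerides, was at 547 ± 16.1, 244 ± 5.59 and 378 ± 12.4 FPKM, or 44.6% and 69.1% of control. Pnliprp2 (ENSMUSG00000025091), which acts on galactolipids and phospholipids, was at 165, 164, 167, 163 and 164 FPKM in control. It was at 118, 127, 121, 124 and 117 FPKM in model, and at 82.6, 87.3, 84.7, 86.5 and 84.0 FPKM in WMW-H. Pnliprp2 was the only lipase gene lower in WMW-H than in model, at 73.8% and then 51.7% of control.

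The secretory granule genes were also unequal. Sycn, syncollin, a protein of the granule membrane, was at 39.0% of the control level in model and 44.6% in WMW-H, and its 2 groups overlapped. Gp2, the main glycoprotein of the granule membrane, was at 27.6% in model and 74.9% in WMW-H. Cuzd1 (ENSMUSG00000040205), a CUB and zona pellucida domain protein of the granule, was at 19.5, 19.3, 18.2, 19.6 and 20.5 FPKM in control. It was at 4.02, 3.25, 4.02, 4.15 and 4.19 FPKM in model, and at 17.3, 17.7, 16.8, 18.7 and 16.9 FPKM in WMW-H. Its WMW-H libraries overlapped with control, at 90.1% ± 3.97, while the model libraries were at 20.2% ± 1.99. Rnase1, the secreted pancreatic ribonuclease, was at 22.3% and 39.7% of control. Klk1, tissue kallikrein, which is also made by goblet cells of the colon, was at 1825 ± 32.9 FPKM in control, against 985 ± 7.03 in model and 1347 ± 89.6 in WMW-H.

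The 2 protease inhibitors moved in opposite directions. Spink1 (ENSMUSG00000024503), which blocks trypsin inside the acinar cell and is also made in the gut, was at 36.1, 41.0, 28.0, 32.5 and 34.3 FPKM in control. It was at 74.3, 83.7, 68.7, 69.7 and 87.0 FPKM in model and at 63.6, 63.4, 49.5, 52.3 and 59.6 FPKM in WMW-H. The 3 groups did not overlap, and both other groups were above control. Serpini2 (ENSMUSG00000034139), a serpin made by acinar cells, was at 8.72, 8.42, 7.58, 8.82 and 7.76 FPKM in control and at 0.809, 0.456, 1.57, 1.10 and 0.917 FPKM in model. In WMW-H it was at 2.58, 3.63, 2.42, 3.25 and 3.42 FPKM. These values rest on 1095, 129 and 380 fragments over the 5 libraries of each group, and put Serpini2 at 11.8% of the control level in model and 37.1% in WMW-H.

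Among the chaperones, Pdia2, the pancreatic protein disulfide isomerase, was at 60.5 ± 1.60 FPKM in control, against 14.4 ± 0.66 in model and 18.1 ± 0.96 in WMW-H. Erp27, which binds a disulfide isomerase in the endoplasmic reticulum, was at 8.96 ± 1.03, 3.06 ± 0.59 and 6.03 ± 0.99 FPKM. Pdia2 stood at 23.8% of the control level in model and 30.01% in WMW-H, close to Cela2a and Cela3b, whereas Erp27 stood at 34.2% and 67.3%.

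The acinar transcription factors were low throughout. Bhlha15 (ENSMUSG00000052271), known as MIST1, which shapes the secretory machinery of acinar and other secretory cells including plasma cells, was at 8.72, 7.603, 8.94, 8.27 and 8.22 FPKM in control. It was at 4.37, 4.15, 3.79, 4.10 and 4.33 FPKM in model and at 3.04, 2.81, 3.45, 3.04 and 2.85 FPKM in WMW-H. It was lower in WMW-H than in model, with no overlap, an order that among the exocrine genes only Pnliprp2 and Spink1 shared. Ptf1a, the DNA-binding subunit of PTF1, gave 15, 11, 10, 14 and 12 fragments in control, 5, 11, 1, 4 and 3 in model and 17, 16, 3, 14 and 19 in WMW-H. WMW-H overlapped with both other groups, and without replicate 3 its libraries were at or above 14 fragments. Rbpjl, the other subunit, was at 0.786 ± 0.083 FPKM in control, against 0.114 ± 0.077 in model and 0.242 ± 0.11 in WMW-H.

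No fragment of the insulin genes was detected in the model libraries. Ins1 (ENSMUSG00000035804) gave 24, 22, 20, 22 and 40 fragments in control, 0 in each model library and 1, 2, 0, 0 and 0 in WMW-H. Ins2 (ENSMUSG00000000215) was at 5.05, 5.90, 7.09, 5.11 and 4.63 FPKM in control, was listed at 0 in each model library and was at 0.541, 0.359, 1.34, 0.634 and 0.939 FPKM in WMW-H. The control libraries of both genes lay above all others. With a floor of 3 fragments over the 5 model libraries, Ins1 was at least 42.8-fold lower than in control and Ins2 at least 45.1-fold lower, the floor for Ins2 being set with its shortest annotated transcript. The core acinar index was 4.12-fold lower. Scaled by the ratios of that index, the control level of Ins1 would give 0.312 FPKM in model and 0.433 in WMW-H, and that of Ins2 would give 1.35 and 1.87 FPKM. In WMW-H the mean was 0.0300 FPKM for Ins1, from 3 fragments in all, and 0.762 ± 0.38 FPKM for Ins2. Floors and fragment counts cover counting error only.

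The other islet hormones behaved otherwise. Iapp, islet amyloid polypeptide, which beta cells release with insulin, was at 1.92, 2.19, 1.19, 1.02 and 1.27 FPKM in control, 0.259, 0.354, 0.240, 0.398 and 1.00 in model and 0.357, 0.584, 0.583, 1.19 and 0.946 in WMW-H. Model and WMW-H overlapped, as did WMW-H and control. Ppy (ENSMUSG00000017316), pancreatic polypeptide, which enteroendocrine cells of the gut can also make, was at 3.79, 5.32, 3.48, 2.48 and 3.55 FPKM in control. It was at 8.46, 7.37, 8.14, 6.96 and 10.5 FPKM in model and at 7.53, 11.9, 8.85, 10.9 and 10.8 FPKM in WMW-H. All model and WMW-H libraries were above all control libraries, and the first 2 overlapped with each other.

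**Figure D2:**
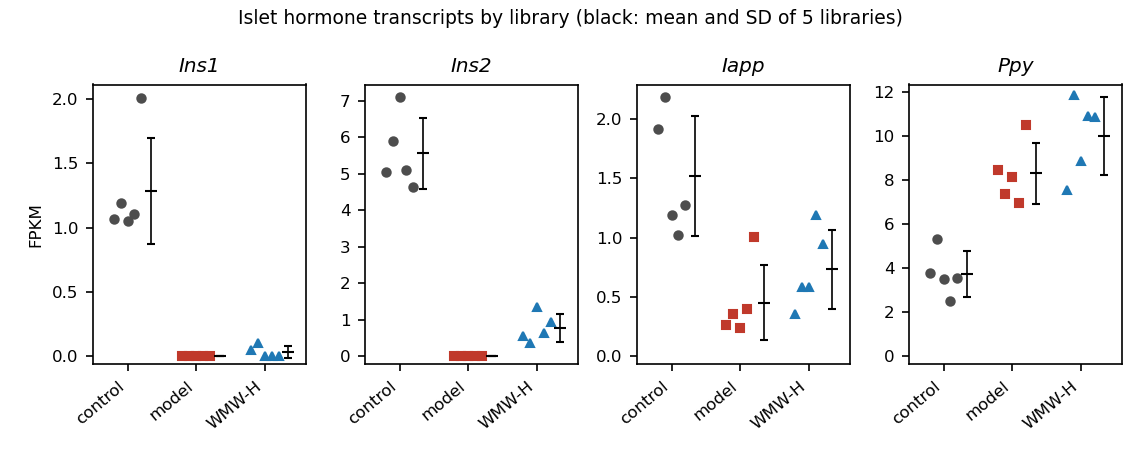
FPKM of Ins1, Ins2, Iapp and Ppy in each library of the 3 groups, on linear axes that differ between the panels, with black bars for the mean and SD of 5 libraries. Ins1 and Ins2 are at 0 in all 5 model libraries, and Ppy is lower in control than in both other groups.

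Whether all of these transcripts scaled by 1 common factor was asked within libraries, which does not depend on how libraries are scaled. The core acinar index of a library was the median log2 FPKM of 11 enzyme and granule genes (Cela2a, Cela3b, Cpa1, Cpb1, Ctrb1, Ctrl, Pnlip, Pnliprp1, Cel, Clps and Sycn). It corresponded to 1322 ± 24.2 FPKM in control, against 321 ± 9.13 in model and 445 ± 12.1 in WMW-H. The common ratio was thus 24.3% of the control level in model and 33.7% in WMW-H, and WMW-H was 1.39 times model. The core genes did not share it exactly. They ran from 15.7% (Cpb1) to 44.6% (Pnliprp1) of the control level in model, a 2.84-fold range, and from 27.4% (Ctrl) to 69.1% (Pnliprp1) in WMW-H, a 2.52-fold range. Between model and WMW-H they ran from a ratio of 1.13 (Ctrl) to 4.21 (Cpb1), a 3.72-fold range. The replicate coefficient of variation was taken over all 37 tested pancreatic genes, not the core genes alone. Its median was 2.76%, 4.62% and 6.76% in control, model and WMW-H. The index, being a median, in effect reads the level of the middle gene, and that gene differed between the groups. It was mostly Ctrl in control, Cela3b in model and Cel in WMW-H. In WMW-H, Ctrl was at 27.4% of its own control level and Cel at 41.1%. With each gene centred on its own mean first, WMW-H against model was 0.56 for the core genes and 0.90 for all acinar genes on the log2 scale, instead of 0.47. In WMW-H against control it was -1.49 and -1.19, instead of -1.57. With the uncentred median of all acinar genes, the values were 1.57 and -0.59, so the ratio of WMW-H to either group rests on the choice of index.

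A gene was counted as departing where its log2 ratio to the index, taken without the gene itself, differed by at least 0.5 between the groups and the 5 and 5 values did not overlap. In model against control, 17 of 37 genes departed (98.5% of 12796 genes did, since most genes of the colon do not follow the index). The genes compared were those above 0 in all libraries of both groups, so Rbpjl and Ptf1a were included and Prss1, Ins1 and Ins2 were not. The identical rows Amy2a2, Amy2a3 and Amy2a4 count as 3 genes in each comparison. With them counted once, 15 departed in model against control. The 7 above the common ratio were Pnliprp1, Pnliprp2, Sycn, Spink1, Klk1, Bhlha15 and Ppy. The 10 below were Cpb1, Prss3, Try4, Try10, Amy2a1, Amy2a2, Amy2a3, Amy2a4, Pla2g1b and Serpini2. The largest departures on the log2 scale were 3.22 for Ppy, 3.21 for Spink1 and 1.61 for Pnliprp2 above, and -1.15 for Serpini2 and -0.98 for Prss3 below. Pla2g1b at -0.52 was just inside the limit and Erp27 at 0.48 just outside. With a limit of 1 in place of 0.5, 6 departed.

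In WMW-H against model, 15 of 37 departed (53.8% of all genes). The 12 above were Cpb1, Ctrb1, Prss3, Try10, Amy2a1, Amy2a2, Amy2a3, Amy2a4, Amy2a5, Gp2, Cuzd1 and Serpini2, led by Amy2a5 at 2.55, Amy2a1 at 2.11 and Cuzd1 at 1.69. The 3 below were Pnliprp2 at -0.99, Bhlha15 at -0.92 and Spink1 at -0.89. Ctrb1 at 0.59 and Try10 at 0.57 were near the limit and were not counted with centred genes. Measured against the median of all acinar genes, 29 departed. Like the core index, that median falls on different genes in different groups. In WMW-H against control, 16 of 38 departed (97.8% of all genes). The 15 above were the 5 amylase rows, Cpb1, Prss2, Pnliprp1, Pnliprp2, Gp2, Spink1, Cuzd1, Erp27, Klk1 and Ppy, and the 1 below was Ins2 at -1.43. With centred genes, Pla2g1b was also counted below and Prss2 was not counted above. Against the median of all acinar genes, 25 departed there.

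Cpb1, Prss3 and Serpini2 lay below the common ratio in model and above it from model to WMW-H, and so did Try10 and the amylase rows other than Amy2a5. Pnliprp2, Spink1 and Bhlha15 did the reverse. Cela2a, Cela3b, Cpa1, Cel, Clps, Pnlip, Rnase1, Try5, Cela1, Ctrl and Pdia2 departed in none of the 3 comparisons. Iapp, Rbpjl and Ptf1a were not counted either, but their libraries overlapped at low levels. Ptf1a differed by 1.3 in WMW-H against model and by 1.59 against control, and Rbpjl by -0.98 in model against control and by 0.72 in WMW-H against model.

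**Figure D3:**
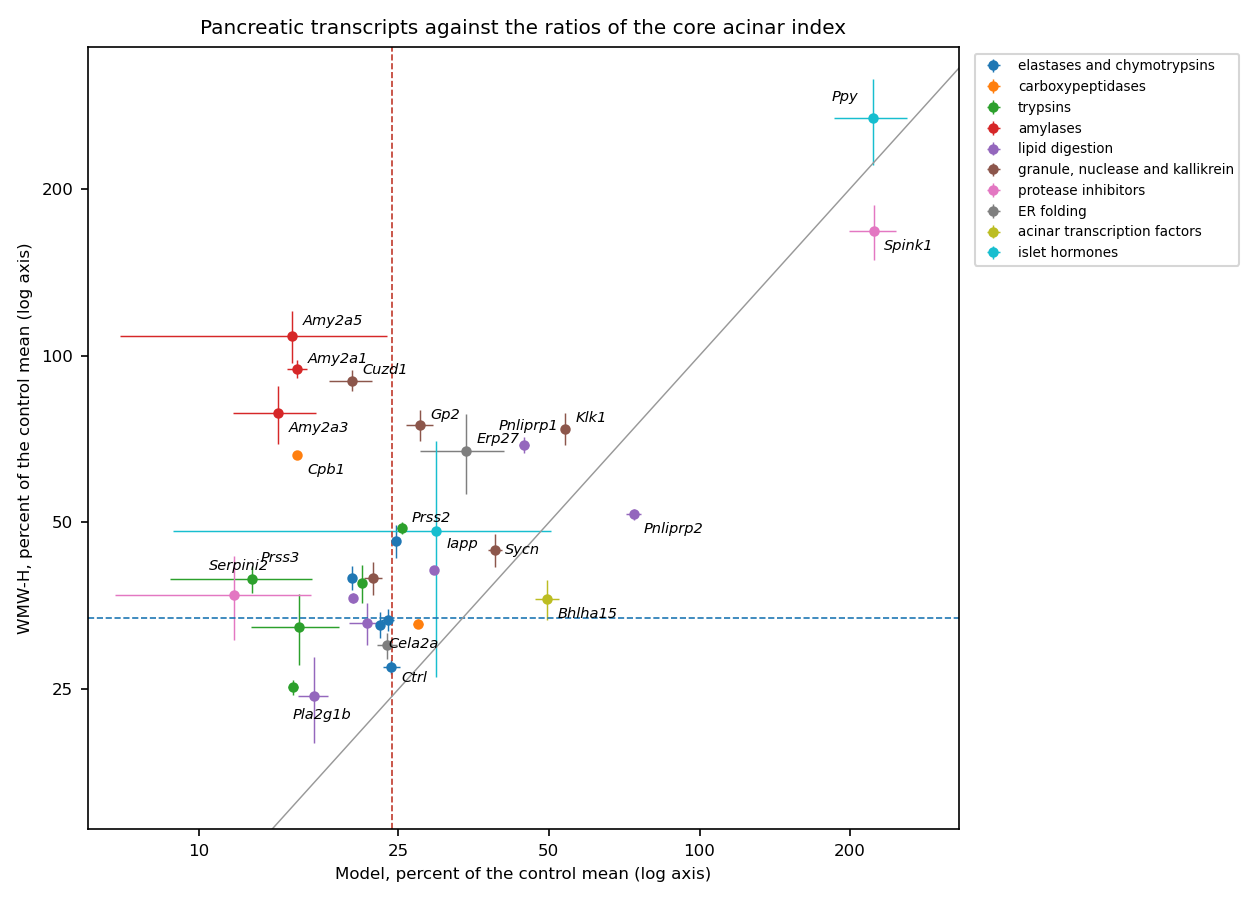
Mean FPKM in WMW-H (vertical, log axis) against the model (horizontal, log axis), each as percent of control, for each pancreatic gene, coloured by role, with bars for the SD of 5 libraries. The dashed lines are the ratios of the core acinar index, 24.3% and 33.7%, which meet near Cela2a, and the grey line marks equal levels in both groups. The amylases, Cuzd1 and Cpb1 lie high on the left, and Pnliprp2, Bhlha15 and Spink1 lie below the grey line.

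The makeup of the exocrine transcripts changed with the groups. Amylases made 11.3% ± 0.33 of the summed exocrine FPKM in control, against 7.21% ± 0.26 in model and 22.2% ± 0.28 in WMW-H, and no library of one group overlapped with another. The identical rows Amy2a2, Amy2a3 and Amy2a4 are each included in these shares, which may count them more than once. Elastases and chymotrypsins made 39.6%, 37.0% and 31.9%. Trypsins made 19.7%, 16.8% and 15.8%. Lipid-digesting proteins made 14.4%, 16.0% and 12.6%, and carboxypeptidases 5.62%, 5.77% and 5.07%. The class of granule proteins, ribonuclease and kallikrein made 9.17%, 16.2% and 11.98%, which in model was mostly Klk1, at 985 of 1468 FPKM. In WMW-H replicate 3, elastases and chymotrypsins were at the low end of their group, at 29.4%, and amylases stayed between 21.9% and 22.6% in all 5 WMW-H libraries.

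**Figure D4:**
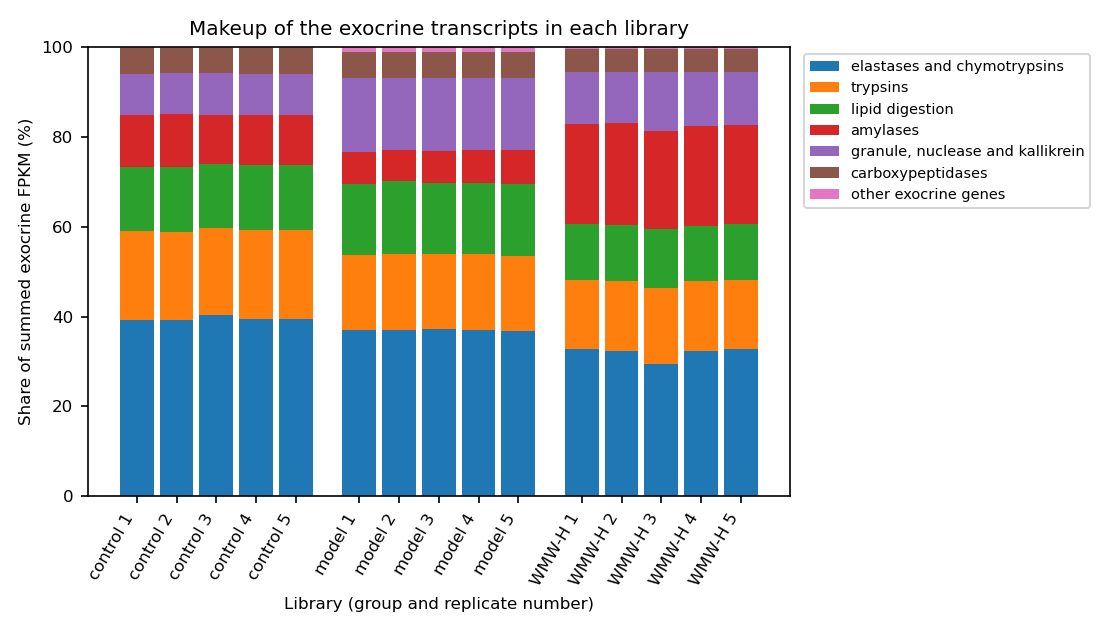
Share of each enzyme class in the summed exocrine FPKM (vertical axis, percent, stacked to 100) in each of the 15 libraries. The amylase band takes about 11.3% in control, against 7.21% in model and 22.2% in WMW-H, and its width differs little between the 5 libraries of a group. The band includes each of the identical rows Amy2a2, Amy2a3 and Amy2a4.

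Acinar genes beyond the chosen ones were also lower in the model. In a list of 21 further acinar genes, written with earlier results of these data known, 15 were tested. The summed FPKM of the list was at 66.3% of the control level in model and 101.5% in WMW-H. The index was at 24.3% and 33.7%. The sum, at 4799 FPKM in control, came mostly from genes not named here, and in WMW-H it held 634 FPKM of Reg2. It therefore does not show how acinar genes moved as a set. In model 15 of 15 were lower and none higher (median -1.08), in WMW-H against model 12 were higher and 2 lower (median 0.66), and in WMW-H against control 3 were higher and 11 lower (median -0.43), by limma with Benjamini-Hochberg adjusted p under 0.05. The trypsinogen-like 2210010C04Rik was at 898 ± 9.49 FPKM in control, against 194 ± 1.53 in model and 308 ± 22.9 in WMW-H. At 21.6% and 34.3% of control, 2210010C04Rik was near the index. It fell by 2.21 in model (limma adjusted p = 1.76e-18) and rose by 0.66 from model to WMW-H (limma adjusted p = 6.18e-11) on the log2 scale. The unnamed model Gm5771 was at 5.56 ± 0.95, 0.162 ± 0.14 and 1.16 ± 0.33 FPKM, or 2.92% and 20.8% of control, below the index.

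Reg1 and Reg2 encode regenerating proteins, which acinar cells are known to induce in injury and which gut epithelium can also make. Reg1 was at 231 ± 6.74 FPKM in control, against 43.1 ± 2.61 in model and 320.0 ± 21.4 in WMW-H. It fell by 2.40 in model (limma adjusted p = 2.09e-17), rose by 2.86 from model to WMW-H (limma adjusted p = 4.68e-18) and was 0.47 higher in WMW-H than in control (limma adjusted p = 1.68e-07). Reg2, which was picked out for its values, was at 23.4 ± 1.35, 20.4 ± 1.63 and 634 ± 44.5 FPKM. Its change in WMW-H was 4.70 against control (limma adjusted p = 1.33e-19) and 4.89 against model (limma adjusted p = 4.39e-20), and its control and model libraries overlapped. These 2 genes are in the acinar list but not among the chosen transcripts.

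Genes of pancreatic ducts changed in both directions. Of 9 tested, 7 were higher and 2 lower in model (median 0.27), 4 higher and 5 lower in WMW-H against model, and 5 higher and 4 lower in WMW-H against control. The filter on low values was passed by 9 of the 11, Krt19 at 1414 ± 11.7 FPKM in control being the highest named. Whether these transcripts came from ducts or from the colon itself was not tested. Tff2, a trefoil peptide, went from 78.5 ± 3.41 to 16.6 ± 0.82 FPKM in model (log2 change -2.18, limma adjusted p = 1.32e-13) and was at 24.5 ± 3.88 in WMW-H, so at 21.1% and 31.2% of control it was near the acinar genes. The chloride channel gene Cftr went from 20.4 ± 0.40 to 11.4 ± 0.43 FPKM in model (limma adjusted p = 1.1e-12) and was at 13.5 ± 0.29 in WMW-H, and Krt7 from 48.8 ± 2.6 to 90.2 ± 8.68 (limma adjusted p = 4.11e-10).

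Of 25 other islet genes, 13 were tested. In model 10 were lower and 2 higher (median -0.41), in WMW-H against model 10 were higher and 1 lower, and in WMW-H against control 3 were higher and 5 lower. Slc30a8, the zinc transporter of beta cell granules, was at 0 in all 15 libraries. Enteroendocrine cells of the colon also make several of these products. Gcg, the gene of glucagon and of the gut hormone GLP-1, was at 63.2 ± 3.92 FPKM in control, against 35.0 ± 1.74 in model and 67.4 ± 3.28 in WMW-H. Sst, somatostatin, was at 61.9 ± 3.66, 23.1 ± 1.36 and 29.4 ± 2.85 FPKM. Pyy, the gut hormone PYY, rose from 84.9 ± 2.71 to 119 ± 8.49 FPKM in model (limma adjusted p = 9.13e-08), as Ppy was higher there.

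Markers of other tissues that could lie next to the colon moved as follows, and their part in the pancreatic values was not tested. The 10 adipocyte genes summed to 368 to 390.1 FPKM in control, 249 to 256 in model and 164 to 175 in WMW-H, with 9 lower in model and 10 lower in WMW-H against both other groups. The adipokine gene Adipoq was at 21.4 ± 1.84, 14.2 ± 0.21 and 10.2 ± 0.80 FPKM, so it stood lowest in WMW-H, where the pancreatic transcripts were above model. Small-intestinal enterocyte genes summed to 162 to 179 FPKM in control, 87.1 to 97.0 in model and 140.2 to 148 in WMW-H, with 4 of 4 tested lower in model and 3 higher in WMW-H than in model. Of these, Fabp2 made most of the sum, at 156 ± 6.19, 84.1 ± 3.97 and 133 ± 2.6 FPKM, and Gip was at 0 in all libraries. Sis was at 1.98 ± 0.22, 0.115 ± 0.054 and 0.641 ± 0.076 FPKM. Its model mean was thus 5.80% of its control mean, and its WMW-H mean 32.4%. Fabp6 was at 3.41 ± 0.95, 0.273 ± 0.33 and 0.516 ± 0.47 FPKM, with means at 8.01% and 15.1%. Both genes were low and lay below the ratios of the core acinar index. Fabp2 (53.9% and 85.4%) and Apob (62.8% and 87.9%) lay above those ratios. Smooth muscle genes summed to 2338 to 2410 FPKM in control, 2316 to 2394 in model and 2335 to 2467 in WMW-H, with 2 of 7 higher and 2 lower in model. Among 9 salivary gland genes, 5 were at 0 in all libraries (Smr3a, Bpifa2, Dcpp2, Dcpp3 and Prol1), and the salivary amylase gene Amy1 was at 2.16 ± 0.48, 0.925 ± 0.33 and 1.92 ± 0.43 FPKM. Of 6 mesothelial genes 2 were tested, and of these Krt19 was higher in model and lower in WMW-H. Krt19, which is also in the duct list, made 1414 of the 1416 FPKM of the mesothelial sum in control. That sum therefore says little of mesothelium. Of 7 plasma cell genes, which share Bhlha15 with acini, 6 were lower and 1 higher in model, and 6 were lower in WMW-H than in control. In WMW-H against model, 2 were higher and 4 lower (median -0.24). The joining chain gene Jchain, at 499.7 ± 11.2, 192 ± 9.27 and 374 ± 22 FPKM, was among the higher ones. Sdc1, the plasma cell surface marker syndecan-1, was among the lower ones, at 109 ± 3.18, 148 ± 1.68 and 114 ± 6.72 FPKM.

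The genes most like the core acinar index over the 15 libraries were ranked by the root mean square distance between centred log2 FPKM values, among 8620 genes with at least 5 FPKM in control and above 0 in all libraries. The core genes are close to the index by construction, since the index of a library is the value of 1 of them. Among the chosen transcripts that are not core genes, the nearest was Pdia2, at a distance of 0.089 on the log2 scale. The nearest named genes outside the set included Slc10a2, Retnlb, Tap1, Tff2, Naaladl1, Ccl5, H2-DMb1, H2-Q7 and Igtp, with distances from 0.12 to 0.21 on the log2 scale. Slc10a2, a bile acid transporter, was at 18.7 ± 0.48 FPKM in control, against 4.82 ± 0.25 in model and 7.48 ± 0.36 in WMW-H. Retnlb, a goblet cell peptide, was at 1339 ± 72.8, 318 ± 19.6 and 511 ± 49.1 FPKM. Tap1, H2-DMb1 and H2-Q7 belong to antigen presentation and Igtp is an interferon-inducible GTPase. Igtp was at 21.5% of the control level in model and 41.8% in WMW-H.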

How the data were processed

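Colon RNA was enriched for polyadenylated RNA before sequencing, per the labels' protocols. Tools listed in the submitters' processing notes, without order or settings, are HISAT2, RSEM, StringTie 1.3.1, fastp 0.18.0 and Bowtie2 2.2.8. The authors deposited 1 table of FPKM values for 22063 genes. The genome build, annotation and strand setting are not given in the sources used here.

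The pancreatic genes and all gene lists were chosen with earlier results of these data known. Depth was recovered from the steps between low values of 3328 genes with 1 transcript. At the depths found, 90.4% of 6168 low values lay within 0.1 of a whole fragment (20% by chance). Fragment counts are given only for genes with 1 usable length, and a count model was not fitted.

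The 12917 genes that reached 1 FPKM in 5 or more libraries were fitted as log2(FPKM + 1) with limma 3.58.1 in R 4.3.3, all 15 libraries in 1 fit with a mean per group and trended empirical Bayes moderation, two-sided, with Benjamini-Hochberg adjustment and a threshold of 0.05. Fold changes of low genes are understated on this scale. On simulated data, the fit recovered 50 of 50 genes changed 2-fold in model versus control (12780 genes), in WMW-H versus model (12797 genes) and in WMW-H versus control (12800 genes), and 30, 36 and 29 of 50 changed 1.25-fold, with 8, 9 and 3 false calls. The core acinar index and departures from it were computed on log2 FPKM without a pseudocount, leaving out genes listed at 0. The quantile, size factor, TPM and outside-total scalings, other pseudocounts and filters, left-out libraries and other indices were tried as alternatives.

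Named genes were all 42 chosen ones, up to 4 per further list with the smallest p in model versus control plus called genes against their list, and the 10 genes nearest to the index without unnamed models. Some genes taken by this rule are left unreported. The lists were other acinar, pancreatic duct, other islet, salivary gland, adipocyte, small-intestinal enterocyte, colon epithelium, smooth muscle, mesothelium and plasma cell genes. Promoter windows came from RefSeq (GRCm38.p6) and transcript identities from GENCODE M21, by Biopython 1.88 alignment. Scripts ran in Python 3.11.15, and figures were drawn with matplotlib 3.10.9. Replicate numbers did not pair the libraries.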

Additional observations from a re-analysis of the deposited data

Results flagged for a closer look

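In 114 groups of 5 libraries (each pancreatic transcript in each study group), 13 had a library whose gap to the nearest of the other 4 was over 0.71 of the group's range. Chance flags about 1 in 20 groups, or about 6 here. Of the 13, 7 were in WMW-H replicate 3, which was low for Cela1 (763 FPKM, the others 871 to 909), Cela2a (1220.3, the others 1345 to 1393), Ctrb1 (2344, the others 2595 to 2648) and Sycn (241, the others 276 to 288), and high for Try5 (928, the others 767 to 812), Rnase1 (407, the others 346 to 356) and Klk1 (1503, the others 1286 to 1340.0). Control replicate 5 was high for Prss1 (0.814 FPKM, the others 0.133 to 0.285) and Ins1 (2.01, the others 1.05 to 1.19). Pnlip was at 2444 FPKM in control replicate 2 and Sycn at 583 FPKM in control replicate 1. Cuzd1 was at 3.25 FPKM in model replicate 2, and Iapp at 1.00 FPKM in model replicate 5, where the others ran from 0.240 to 0.398.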

How the results depend on the processing

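Of 2625 changes of named genes outside the pancreatic set recomputed under alternative settings, 2586 kept their direction and side of the threshold, 14 lost a call, 15 gained one and 10 turned. Of 168 recomputed counts and common ratios, 149 stayed within 1.5 times or the spread between libraries. Most of the 168 left out 1 library or counted calls of the chosen genes. The tally therefore does not show a stable common ratio, which moved by more than that spread with most other indices, given below. Replicate numbers did not pair the libraries (0 of 15 same-numbered pairs with r over 0.1). With a replicate block, 35, 31 and 33 pancreatic genes were called lower, higher and lower in the 3 comparisons, as without it, which says nothing of stability since they were chosen on these contrasts.

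The common log2 ratio depended on the index. Model versus control was -1.99 with the mean of the core genes, -2.10 with their summed FPKM, -2.16 with the median of all acinar genes and -2.09 with those genes centred. WMW-H versus model was 0.66, 0.68, 1.57 and 0.90, and 0.56 with the core genes centred. WMW-H versus control was -1.33, -1.41, -0.59 and -1.19, -1.49 with the core genes centred and -1.63 rescaled to the total outside the pancreatic genes. Leaving out 1 library gave -2.06 to -2.03, 0.46 to 0.49 and -1.58 to -1.55. Departing genes in WMW-H versus model were 29 against all acinar genes and 9 at a limit of 1. They were 6 at that limit in model versus control and 25 against all acinar genes in WMW-H versus control. Without 1 library they were 16 to 18, 14 to 16 and 16 to 18. Centring was added after the data were seen. Causes were not tested.

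Scaling also moved the background. The median of all genes in model versus control was 0.12 as deposited and -0.02 after quantile normalization, and genes called higher and lower were 5881 and 2658 as deposited, 4061 and 3858 with size factors and 3765 and 4167 after quantile normalization. For WMW-H versus model they were 3347 and 5286, 4003 and 4420, and 4194 and 4269. For WMW-H versus control they were 4570 and 3116, 3862 and 3777, and 3636 and 3943.

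Small changes outside the pancreatic genes turned. In model versus control with size factors these were Actg2 (-0.0059), Des (-0.067) and Krt19 (-0.039). In WMW-H versus model, Upk1b turned with size factors (0.021), quantiles (0.028), without model replicate 1 (0.0052), without model replicate 4 (0.0022) and without WMW-H replicate 3 (0.093), with -0.095 to 0.093 over the left-out libraries. In WMW-H versus control, Myh11 turned with size factors (-0.0062) and the outside total (-0.016).

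Depth limits Prss1, Ptf1a, Ins1 and Ins2, which rest on few fragments. Near-identical amylase and trypsinogen transcripts limit the split among their rows.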
